A study of Homo sapiens with 6 samples.

Results

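Collagen transcripts were compared between PC3 libraries made after non-specific siRNA and those made after paxillin-targeted siRNA. Members were all gene names in the deposited count table made of COL, a type number, A and a chain number, and nothing more. This rule uses no measured value and found 43 of 23285 genes, from 27 collagen types. PC3 is an established prostate cancer line grown from a metastasis in bone, and transfection lasted 72 h. For either siRNA there were 3 libraries, numbered 1, 2 and 3. No label states whether the 3 are separate cultures, and a p-value below therefore reflects just the spread among these libraries, possibly a technical one. How many siRNAs were used, and their sequences, is not stated in the labels. The comparison asks how transcripts of matrix genes stand in these cells when paxillin, an adaptor of the adhesions through which integrins hold the matrix, is reduced.

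Collagens are secreted or membrane proteins in which 3 chains wind into a triple helix. Fibril-forming types make the fibres of connective tissue, type IV makes the sheet of basement membranes, and type VI makes beaded filaments that link cells to both. Fibril-associated types decorate fibrils, transmembrane types sit in the cell surface, and type XV and XVIII chains carry sugar-rich regions and lie at basement membranes. Several types need chains of more than 1 gene, so the relative level of partner chains bears on which trimers can form. Epithelium and the carcinomas that come from it are known mainly for basement membrane collagens, and fibroblasts for the fibril-forming ones.

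The deposited counts, divided by what a single read is worth in each library, corresponded to 22209765 to 33627645 reads, and replicate 3 was the shallowest of both groups. *PXN*, the targeted gene, was at 718 to 854 CPM (counts scaled to a common library size with TMM factors) with non-specific siRNA and at 55.7 to 91.7 CPM with paxillin siRNA. Paxillin siRNA replicate 3 kept the most *PXN*. Its log2 CPM over all genes tested correlated more closely with non-specific siRNA replicate 3 (0.986) than with paxillin siRNA replicates 1 and 2 (0.973 and 0.971), across genes, which are not independent replicates. The share of counts in the *MTRNR2L* genes, which resemble mitochondrial ribosomal RNA, was 1.11% to 1.6% with non-specific siRNA and 4.93%, 4.09% and 2.32% in paxillin siRNA replicates 1 to 3. The part of depth and of this share in the collagen values was not tested.

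Transcript of type VI collagen made up most of the collagen message in PC3. Levels of different genes are compared here in FPKM, which divides by transcript length. *COL6A1*, which encodes the alpha 1 chain of type VI, was at 203, 153 and 209 FPKM in the controls, replicates 1 to 3 in order, and at 244, 182 and 191 after paxillin siRNA. *COL6A2*, its alpha 2 chain, was at 177, 152 and 170 and at 215, 161 and 157 FPKM. The ranges of the groups overlapped for both genes. Together these chains held 86.3% to 87.0% of the FPKM summed over all 43 collagens in every library. Collagens as a whole held 0.236% ± 0.0325 (SD, n = 3) of all FPKM with non-specific siRNA and 0.269% ± 0.0458 with paxillin siRNA.

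Only 2 of the 43 genes, the type VI pair, had a mean above 10 FPKM over the 6 libraries, and 13 had a mean of at least 1 FPKM. Below the pair came *COL18A1* at a mean of 9.60 FPKM, *COL13A1* at 8.53, *COL4A2* at 7.98 and *COL5A2* at 7.28. They belong to 4 different structural classes, and their values overlapped between libraries, so their order is not firm. *COL1A1* (3.95), *COL4A5* (3.78), *COL6A3* (2.94), *COL4A1* (2.66), *COL12A1* (2.37), *COL5A1* (2.26) and *COL2A1* (1.95) made up the rest of the 13. By class, summed FPKM with non-specific siRNA was 359 ± 44.4 (SD, n = 3) for beaded filament collagen, 14.5 ± 3.53 for fibril-forming, 13.8 ± 3.12 for type IV, 9.22 ± 1.39 for transmembrane, 8.66 ± 1.29 for the type XV and XVIII class and 3.23 ± 0.388 for fibril-associated collagens. With paxillin siRNA the same sums were 385 ± 64.7, 19 ± 5.41, 16.2 ± 2.51, 8.04 ± 1.39, 10.6 ± 1.72 and 3.88 ± 0.252.

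**Figure D1:**
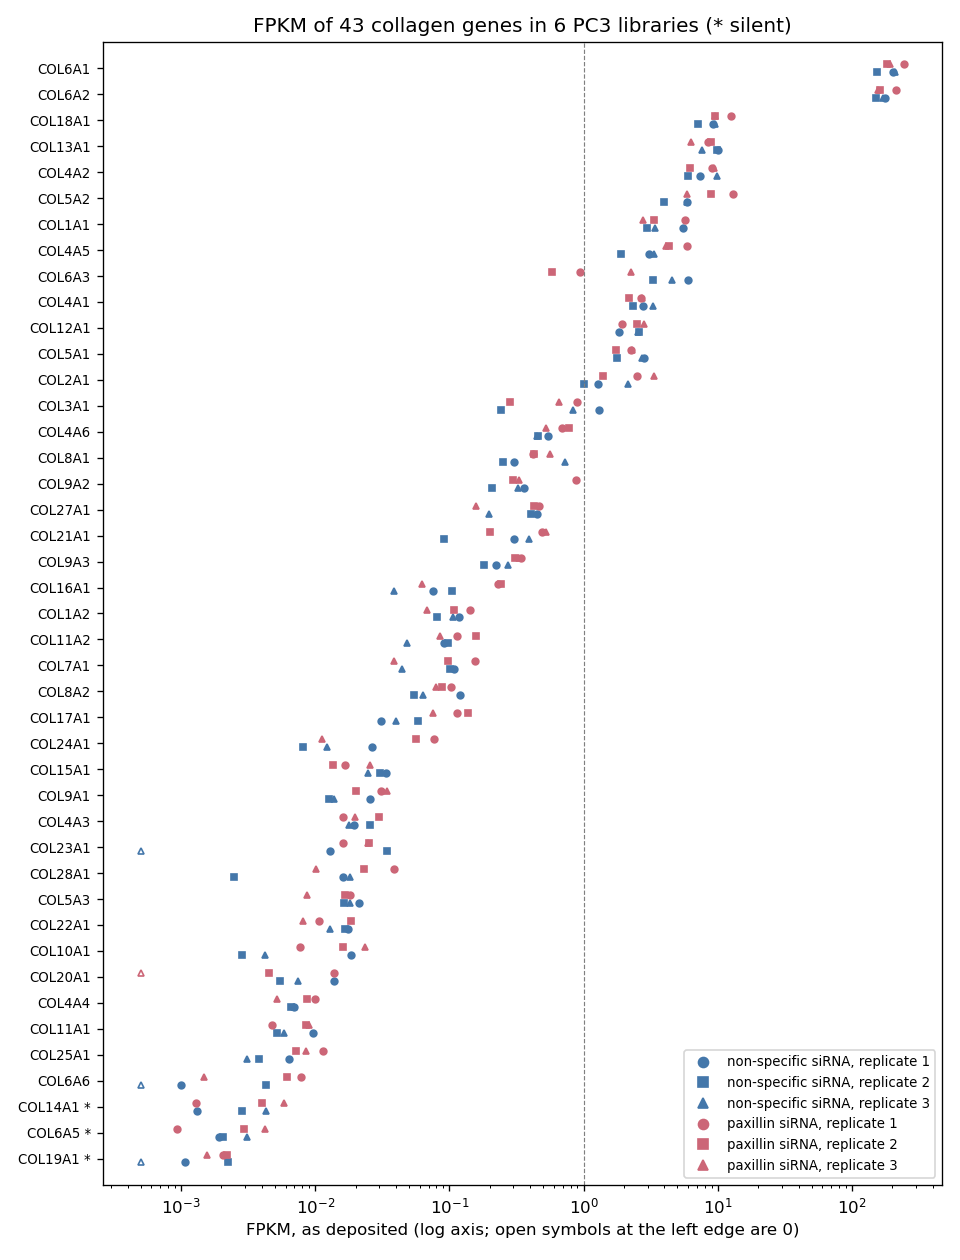
FPKM of each of the 43 collagen genes (log axis) in the 3 non-specific siRNA libraries (blue) and the 3 paxillin siRNA libraries (red), ordered by mean, with a dashed line at 1 FPKM and an asterisk at the 3 silent genes. *COL6A1* and *COL6A2* stand more than 10 times above all others, and 13 genes have a mean right of the dashed line.

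Silent collagens were those with at most 3 single reads in each of the 6 libraries. Silent here is a limit on reads and not a shown absence of transcript. By this limit 3 genes were silent. *COL6A5*, a type VI chain, had 2 reads in each control and 1, 3 and 3 after paxillin siRNA. *COL14A1*, a fibril-associated collagen of skin and tendon, had 1, 2 and 2 and then 1, 3 and 3 reads. *COL19A1*, another fibril-associated chain, had 1, 2 and 0 and then 2, 2 and 1. A further 9 genes had a few reads but too few to be tested: *COL4A4*, *COL6A6*, *COL9A1*, *COL10A1*, *COL11A1*, *COL20A1*, *COL23A1*, *COL25A1* and *COL28A1*. The most reads among them were 17, for *COL28A1* in paxillin siRNA replicate 1. Among these 9, *COL25A1*, a transmembrane collagen of neurons, was the gene with all paxillin siRNA libraries (5, 3 and 3 reads) above all non-specific ones (2, 2 and 1). These are counts of a few reads and were not tested. With silence set instead at a mean under 0.1 FPKM, 21 of the 43 genes would be called silent, and 9 of those had passed the filter for testing.

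The other 31 collagens passed the filter on low counts and were compared between the groups. Without the replicate block, edgeR's quasi-likelihood test called 0 of the 31 at an adjusted p under 0.05, and 1.18% of all 15876 genes tested (0.882% higher, 0.302% lower). At an unadjusted p under 0.05 there were 8, with 22.5% of all genes at that level. Limma-voom called 0. DESeq2, run on all 43 collagens without that filter, called 3 higher and 1 lower. It called 4.79% higher and 5.05% lower (9.84% in either direction) of the 15850 genes to which it gave an adjusted p. Genes without an adjusted p are left out of that base, so it may not cover all 43 collagens. Libraries with the same replicate number deviated together, and with that number as a block 8 collagens were higher and 1 lower. Those are 25.8% and 3.23% of the 31, where 11.7% and 10.7% of all genes were called higher and lower in that fit. The share called in either direction was 29%, and 22.4% over all genes. Without paxillin siRNA replicate 3 and without the block, 6 of 33 collagens tested were higher and 1 lower, where 7.24% and 7.88% of all genes were called (15.1% together).

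The change depended on the replicate number. The median log2 ratio of paxillin over non-specific siRNA among the 31 was 0.34 in pair 1, 0.49 in pair 2 and 0.01 in pair 3, and that of all genes tested was 0.0056, 0.0017 and 0.0088. In pairs 1, 2 and 3, 21, 28 and 16 of the 31 collagens were higher. In all 3 pairs 12 were higher (38.7%; 29.2% of all genes) and 1 lower (3.23%; 28.7% of all genes). At 9 of the 43 loci another gene is also listed, among them *COL5A2* and *COL17A1* (microRNAs) and *COL9A3*, and reads there cannot be assigned between the genes from these tables. For each of the 9 collagens called with the block, the change was smallest in pair 3. Libraries of the groups did not overlap for 5 higher collagens (16.1%; 13.6% of all genes) and 1 lower one (3.23%; 14.7%). With the block but without replicates 1, 2 or 3 of both groups, 30, 30 and 31 collagens were tested. Of these 0, 4 and 12 were higher and 1 was lower each time. All genes were called higher at 1.77%, 4.29% and 16.1% and lower at 1.09%, 4.1% and 14.5% in those fits, or 2.85%, 8.39% and 30.6% together. The collagen lower in each of them was *COL6A3*.

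**Figure D2:**
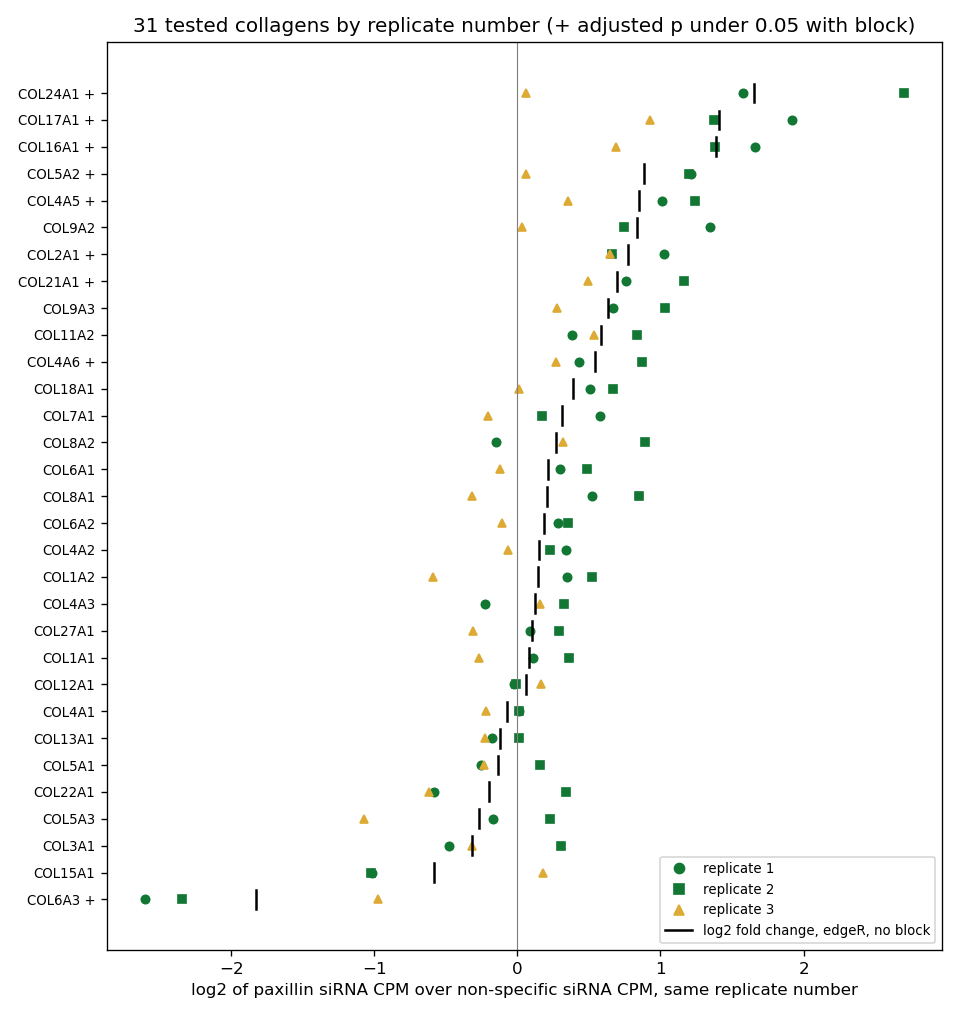
Log2 ratio of paxillin over non-specific siRNA CPM for the 31 tested collagens, with circles, squares and triangles for replicate numbers 1, 2 and 3 and a black bar for the edgeR log2 fold change without the block. Genes marked + are the 9 called with the block, and the yellow triangles of replicate 3 lie nearest to 0 in all 9.

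The third chain of type VI collagen fell in the fit with the replicate block, and its partners passed in neither fit. *COL6A3* (chromosome 2, 238232655 to 238322850, hg19) encodes the long alpha 3 chain, which joins the alpha 1 and alpha 2 chains in the common type VI trimer and whose end gives the fragment endotrophin. It was at 193, 105 and 139 CPM in control replicates 1 to 3, and at 31.8, 20.8 and 70.9 CPM after paxillin siRNA. Every paxillin siRNA library lay below every non-specific one, and the highest of the 3 was replicate 3. The fold change was 3.55-fold lower, at a log2 fold change of -1.83 ± 0.44 (SE; edgeR adjusted p = 0.081) and of -1.97 ± 0.25 with the replicate block (adjusted p = 0.000332). DESeq2 gave an adjusted p of 0.000263 and limma-voom 0.0677. Pairs 1, 2 and 3 gave log2 ratios of -2.60, -2.34 and -0.98. Without paxillin siRNA replicate 3 and without the block the log2 fold change was -2.48 (adjusted p = 0.00576).

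*COL6A1* (chromosome 21, 47401663 to 47424963, hg19) was at 2514, 1769 and 2533 CPM and then at 3084, 2482 and 2329 CPM, with a log2 fold change of 0.21 ± 0.21 (SE; edgeR adjusted p = 0.59). *COL6A2*, which lies next to it on chromosome 21 (47518033 to 47552763), was at 1767, 1392 and 1667 CPM and then at 2156, 1777 and 1544 CPM (log2 fold change 0.18 ± 0.19, adjusted p = 0.607). Neither passed with the block (adjusted p = 0.438 and 0.51). Both were higher in pairs 1 and 2 and lower in pair 3. The FPKM of *COL6A2* was 0.893 ± 0.0893 (SD, n = 3) times that of *COL6A1* with non-specific siRNA and 0.864 ± 0.0343 times with paxillin siRNA, with p = 0.9 by exact permutation, two-sided. *COL6A3* was far below both in every library. Its FPKM was 0.0296, 0.0215 and 0.0219 times that of *COL6A1* in control replicates 1 to 3, and 0.00385, 0.0032 and 0.0118 times after paxillin siRNA. The ratios of the groups did not overlap (exact two-sided permutation p = 0.1, the smallest that 3 against 3 allow). This last ratio was chosen after the values had been seen. Of the longer type VI chains that can stand in for alpha 3, *COL6A6* had 0 to 4 reads and 1 to 8 reads in the libraries of the groups, and *COL6A5* was silent.

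**Figure D3:**
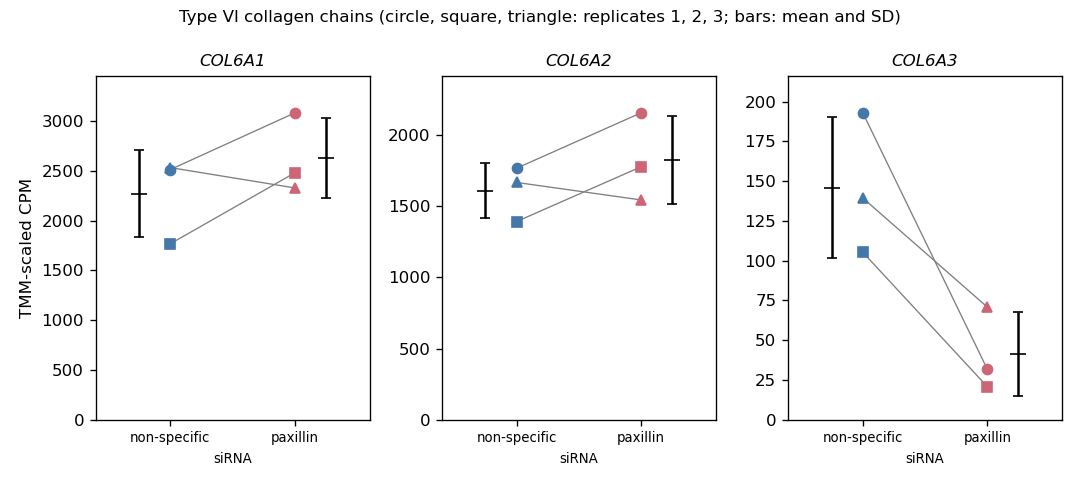
TMM-scaled CPM of the 3 type VI chains tested, with non-specific siRNA in blue, paxillin siRNA in red, grey lines joining equal replicate numbers and black bars for mean and SD (n = 3). Each axis starts at 0 and has its own scale. The *COL6A3* libraries with paxillin siRNA (20.8 to 70.9 CPM) lie below all of those with non-specific siRNA, while the groups overlap for *COL6A1* and *COL6A2*.

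In mammals the 6 type IV genes lie as 3 head-to-head pairs, each pair sharing the stretch between its starts. The minor-chain pair on chromosome X rose with the replicate block. *COL4A5* (107683074 to 107940775, hg19), whose loss causes Alport syndrome, was at 74.1, 46.4 and 78.3 CPM with non-specific siRNA and at 149, 110 and 99.8 CPM with paxillin siRNA. The groups did not overlap. Its log2 fold change was 0.85 ± 0.23 (SE; edgeR adjusted p = 0.101) and 0.87 ± 0.16 with the block (adjusted p = 0.00307). *COL4A6* (107398837 to 107682704), its neighbour, was at 12.8, 10.8 and 10.3 CPM and then at 17.2, 19.7 and 12.4 CPM. It was higher in each pair, although paxillin siRNA replicate 3 lay just below non-specific siRNA replicate 1, at a log2 fold change of 0.54 ± 0.20 (adjusted p = 0.169) and 0.52 ± 0.16 with the block (adjusted p = 0.0333). Without replicate 1 of both groups neither passed in the block fit (adjusted p = 0.0798 and 0.178), and without replicate 2 *COL4A6* did not (0.245).

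The ubiquitous pair on chromosome 13 gave smaller values. *COL4A1* (110801310 to 110959496) was at 63.5, 53.1 and 73.9 CPM and then at 63.9, 53.6 and 63.5 CPM, a log2 fold change of -0.07 ± 0.15 (SE; edgeR adjusted p = 0.811). *COL4A2* (110959631 to 111165373) was at 164, 128 and 217 CPM and then at 208, 150 and 208 CPM, a log2 fold change of 0.15 ± 0.22 (adjusted p = 0.72). The libraries of the groups overlapped for both genes. *COL4A2* stood above *COL4A1* per length in every library, by 2.75 ± 0.236 times (SD, n = 3) with non-specific siRNA and 3.22 ± 0.324 times with paxillin siRNA (exact two-sided permutation p = 0.2). Of the kidney and lung pair on chromosome 2, *COL4A3* was tested at 0.613 ± 0.122 and 0.669 ± 0.242 CPM (log2 fold change 0.13 ± 0.36, edgeR adjusted p = 0.865), and *COL4A4* had 4 to 12 reads in a library.

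Promoter windows from RefSeq (GRCh38.p14) were matched for 31 of the 43 genes, and the 250 bases before each start were searched on both strands for 6 motifs. These were the CCAAT box (CCAAT), the TATA box (TATAAA), the GC box (GGGCGG), the AP-1 site (TGANTCA), a TEAD site (GGAATG) and an interferon response element (GAAA, any 2 bases, GAAA). They occurred in 9, 5, 18, 0, 1 and 1 collagen windows, and in 32.0%, 10.7%, 42.6%, 6.57%, 11.9% and 3.02% of 35116 windows of the same length. A match is a description of letters and not a bound site. The 9 windows with the CCAAT box were those of *COL4A1*, *COL4A2*, *COL4A5*, *COL4A6*, *COL5A3*, *COL9A1*, *COL11A1*, *COL17A1* and *COL28A1*. The starts of *COL4A5* and *COL4A6* are 379 bases apart in that build and those of *COL4A1* and *COL4A2* 126. The windows of each pair therefore overlap, and their matches are not independent. In the *COL4A1* and *COL4A2* windows the longest stretch free of annotated exons was 2 bases. The stretch of chrX:108439588-108439837 (plus strand) directly before the *COL4A5* start, most of the interval that this pair shares, is shown because both genes were higher with the block. Capitals mark its 2 matches to the CCAAT box, 1 on each strand:
COL4A5: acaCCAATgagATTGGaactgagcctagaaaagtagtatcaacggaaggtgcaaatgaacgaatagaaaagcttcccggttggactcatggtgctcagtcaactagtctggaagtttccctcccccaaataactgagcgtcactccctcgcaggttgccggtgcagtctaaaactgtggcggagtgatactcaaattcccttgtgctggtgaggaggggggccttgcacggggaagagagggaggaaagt

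Type V collagen, a regulator of the width of type I fibrils, showed unequal values for its chains. *COL5A2* (chromosome 2, 189896641 to 190044605, hg19) was at 144, 99.6 and 142 CPM with non-specific siRNA and at 334, 229 and 148 CPM with paxillin siRNA. Replicates 1 and 2 with paxillin siRNA were far above all controls, and replicate 3 was only just above them. The log2 fold change was 0.88 ± 0.29 (SE; edgeR adjusted p = 0.137) and 0.83 ± 0.20 with the block (adjusted p = 0.012), and the log2 ratios of pairs 1, 2 and 3 were 1.21, 1.20 and 0.06. In the block fit the adjusted p was 0.193 without replicate 1 and 0.111 without replicate 2 of both groups. *COL5A1* (chromosome 9, 137533652 to 137736688), its usual partner, was at 71.7, 44.0 and 68.0 CPM and then at 60.1, 49.1 and 57.9 CPM, a log2 fold change of -0.14 ± 0.20 (adjusted p = 0.714). The FPKM of *COL5A2* was 2.11, 2.25 and 2.18 times that of *COL5A1* in the controls and 5.77, 5.05 and 2.61 times with paxillin siRNA. These ratios did not overlap (exact two-sided permutation p = 0.1, the smallest possible), and their log2 difference was 0.96. *COL5A3*, the third chain, had a log2 fold change of -0.27 (edgeR adjusted p = 0.737) at under 0.5 CPM in each group.

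Type I and type III collagen, the main fibrillar collagens of connective tissue, did not pass in either edgeR fit with all 6 libraries. *COL1A1* (chromosome 17, 48261457 to 48279000, hg19) was at 98.9, 51.0 and 59.3 CPM and then at 107, 65.6 and 49.2 CPM, a log2 fold change of 0.08 ± 0.33 (SE; edgeR adjusted p = 0.906). Its partner *COL1A2*, which gives 1 of the 3 chains of the usual type I trimer, was at 2.03, 1.39 and 1.80 CPM and then at 2.58, 2.00 and 1.19 CPM. *COL3A1* was at 25.6, 4.83 and 16.2 CPM and then at 18.4, 5.96 and 13 CPM, and replicate 2 was lowest in both groups (adjusted p = 0.781, and 0.454 with the block). *COL27A1*, a fibrillar chain also known from cartilage, was at 6.43 ± 2.51 and 6.91 ± 3.45 CPM (adjusted p = 0.914).

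*COL24A1* (chromosome 1, 86194916 to 86622121, hg19), a minor fibrillar chain of developing bone, had the largest increase on the log2 scale among the 31 collagens, on few reads. It had 21, 6 and 6 reads in the controls and 62, 43 and 6 after paxillin siRNA. Replicates 1 and 2 with paxillin siRNA were above all other libraries and replicate 3 was not. Its level was 0.377 ± 0.23 and 1.20 ± 0.827 CPM (SD, n = 3), a log2 fold change of 1.65 ± 0.69 (SE; edgeR adjusted p = 0.209) and 1.59 ± 0.41 with the block (adjusted p = 0.0172). In the block fit it was filtered out without replicate 1 of both groups and at an adjusted p of 0.16 without replicate 2. The stretch chr1:86156773-86156896 (minus strand, RefSeq GRCh38.p14) directly before its start is printed as the promoter of the gene with that increase, and it held none of the 6 motifs:
COL24A1: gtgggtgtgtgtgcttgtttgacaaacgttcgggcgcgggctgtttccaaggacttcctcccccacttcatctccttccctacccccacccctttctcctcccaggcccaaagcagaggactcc

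Of the type II, IX and XI chains tested, *COL2A1* passed with the block and *COL9A2*, *COL9A3* and *COL11A2* did not. *COL2A1* (chromosome 12, 48366748 to 48398285, hg19), the main fibrillar chain of cartilage, was at 22.3, 16.8 and 36.7 CPM with non-specific siRNA and at 45.5, 26.6 and 57.5 CPM with paxillin siRNA. The groups overlapped, because replicate 3 was highest and replicate 2 lowest in both, and the log2 ratios within pairs were 1.03, 0.66 and 0.65. Its log2 fold change was 0.77 ± 0.35 (SE; edgeR adjusted p = 0.235) and 0.78 ± 0.13 with the block (adjusted p = 0.00168). In the block fit the adjusted p was 0.0578 without replicate 1 of both groups. The chains of type IX, which coats type II fibrils, and of type XI, which forms their core, gave values in the same direction that passed in no fit with all 6 libraries. *COL9A2* was at 3.31, 1.82 and 2.97 and at 8.41, 3.06 and 3.03 CPM, and its adjusted p was 0.307, or 0.0568 with the block. *COL9A3* was at 1.6, 1.22 and 1.94 and at 2.54, 2.49 and 2.35 CPM, with groups that did not overlap (adjusted p = 0.194, or 0.0729 with the block). *COL11A2* was at 1.41 ± 0.354 and 2.12 ± 0.499 CPM (SD, n = 3; adjusted p = 0.294, or 0.0998 with the block), and the deposited tables place it on different assemblies of chromosome 6. *COL9A1* and *COL11A1* had at most 11 reads in a library. *SOX9*, the transcription factor known to drive *COL2A1* in cartilage, was at 198, 145 and 217 CPM and then at 175, 161 and 216 CPM. Of the other chondrocyte markers measured, *ACAN* was at 0.215 to 0.758 CPM over the 6 libraries and *COMP* at 0.0361 to 0.226. *MATN3*, a cartilage matrix protein, was at 5.94, 6.87 and 4.66 CPM and then 3.29, 3.02 and 3.65, and was lower with the block.

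Among the other fibril-associated collagens, *COL16A1* and *COL21A1* rose with the replicate block. *COL16A1* (chromosome 1, 32117848 to 32169768, hg19), found at basement membrane zones, was at 1.49, 2.00 and 0.76 CPM with non-specific siRNA and at 4.71, 5.21 and 1.23 CPM with paxillin siRNA. Replicate 3 was lowest in both groups, and paxillin siRNA replicate 3 lay within the control range. Its log2 fold change was 1.39 ± 0.56 (SE; edgeR adjusted p = 0.198) and 1.31 ± 0.25 with the block (adjusted p = 0.00368; 0.0989 without replicate 1 of both groups). *COL21A1* (chromosome 6, 55921388 to 56112378) was at 4.48, 1.39 and 5.63 CPM and then at 7.59, 3.13 and 7.94 CPM. Replicate 2 was low in both groups, so the groups overlapped, but each pair was higher by 0.76, 1.17 and 0.50 log2 units (adjusted p = 0.459, and 0.0172 with the block). Without replicate 1 or 2 of both groups its adjusted p in the block fit was 0.153 and 0.0991. *COL12A1*, which binds type I fibrils and was the most abundant of the class, was at 65.9, 90.8 and 94.2 and at 64.9, 90.4 and 106 CPM (adjusted p = 0.897). *COL22A1*, of tissue junctions, was at 0.342 ± 0.059 and 0.298 ± 0.14 CPM (SD, n = 3; adjusted p = 0.822).

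Of the transmembrane collagens, *COL17A1* rose with the replicate block. *COL17A1* (chromosome 10, 105791046 to 105845638, hg19) encodes BP180, which anchors epithelial cells to the basement membrane at hemidesmosomes. It had 20, 33 and 16 reads, or 0.605, 1.11 and 0.76 CPM, in the controls and 74, 89 and 32 reads, or 2.28, 2.87 and 1.44 CPM, after paxillin siRNA. All paxillin siRNA libraries lay above all controls. The log2 fold change was 1.41 ± 0.36 (SE; edgeR adjusted p = 0.0892) and 1.40 ± 0.27 with the block (adjusted p = 0.00431; 0.0951 without replicate 1 of both groups). DESeq2 gave 0.0182. *COL13A1*, a collagen of focal adhesions and other junctions and the most abundant transmembrane one, was at 93.3, 88.9 and 69.2 CPM and then at 82.4, 89.8 and 59.3 CPM (log2 fold change -0.12 ± 0.19, adjusted p = 0.742). *COL23A1* and *COL25A1* were too low to test. The *COL17A1* window was the only 1 of the 31 with a match to the interferon response element. That is near the 3.02% of all 35116 windows with such a match. An annotated *COL17A1* exon lies nearer the start, so the stretch shown ends 77 bases before the start. This stretch, chr10:104085958-104086130 (minus strand, RefSeq GRCh38.p14), is printed with the match, which lies on the opposite strand, a TATA box and a CCAAT box in capitals:
COL17A1: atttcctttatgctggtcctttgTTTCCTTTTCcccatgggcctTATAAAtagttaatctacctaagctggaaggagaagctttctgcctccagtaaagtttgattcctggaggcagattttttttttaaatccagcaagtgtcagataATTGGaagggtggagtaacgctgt

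The window of the abundant *COL6A2* held a TATA box and 4 matches to the GC box. The windows of *COL6A6* and *COL7A1*, which were much lower, also held both motifs, and *COL6A1* had no matched window. A relation between motifs and level was not tested. The *COL6A2* stretch chr21:46097862-46098096 (plus strand, RefSeq GRCh38.p14) is shown with the matches in capitals:
COL6A2: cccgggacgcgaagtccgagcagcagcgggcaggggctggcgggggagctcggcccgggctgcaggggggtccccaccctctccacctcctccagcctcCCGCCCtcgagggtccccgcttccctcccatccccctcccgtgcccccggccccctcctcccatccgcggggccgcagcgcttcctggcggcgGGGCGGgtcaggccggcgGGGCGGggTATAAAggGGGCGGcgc

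**Figure D4:**
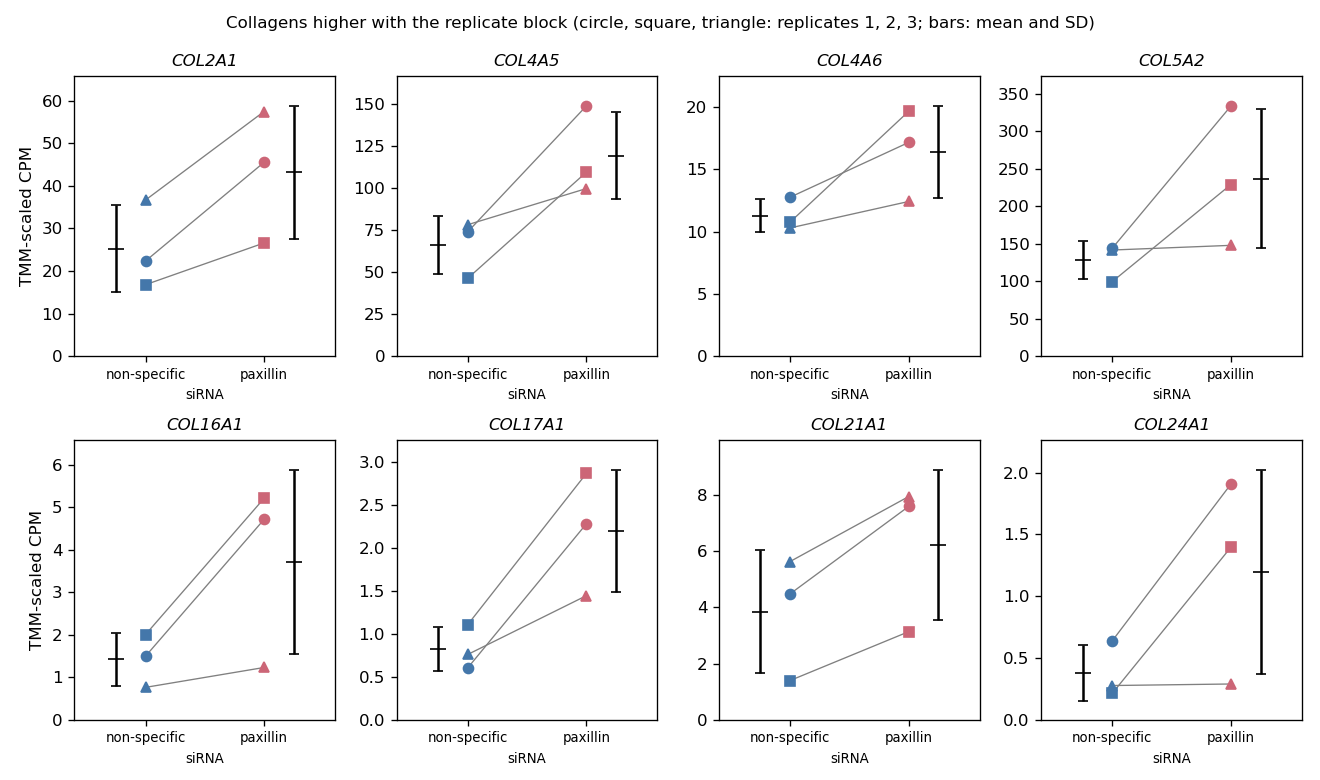
TMM-scaled CPM of the 8 collagens higher with the replicate block, drawn as for type VI with an axis from 0 in each panel. Lines that join equal replicate numbers rise in every panel, and the triangle of paxillin siRNA replicate 3 lies close to the controls for *COL5A2* (148 CPM) and *COL24A1*.

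The collagens of the type XV and XVIII class, of anchoring fibrils (*COL7A1*) and of short-chain networks passed in neither edgeR fit with all 6 libraries. *COL18A1* (chromosome 21, 46825097 to 46933634, hg19), the source of endostatin, was at 150, 110 and 153 CPM and then at 213, 174 and 155 CPM. The groups did not overlap, but replicate 3 differed by only 0.01 log2 units, and the log2 fold change was 0.39 ± 0.18 (SE; edgeR adjusted p = 0.254, or 0.0667 with the block). It passed in the block fit without replicate 3 of both groups (log2 fold change 0.59, adjusted p = 0.00375). *COL18A1-AS1* is listed at the same locus, and without stated use of strand its reads cannot be told apart from those of *COL18A1*. *COL15A1* was at 0.519 ± 0.0962 and 0.344 ± 0.11 CPM (SD, n = 3; adjusted p = 0.386), and *COL7A1*, which makes the anchoring fibrils of skin, at 2.67 ± 1.10 and 3.31 ± 1.99 CPM (adjusted p = 0.762). *COL8A1* was at 4.58 ± 2.73 and 5.28 ± 0.782 CPM (adjusted p = 0.79) at a locus listed for other genes too, and *COL8A2* at 1.13 ± 0.535 and 1.36 ± 0.228 CPM (adjusted p = 0.701).

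Genes that modify, fold, export, cut, crosslink or bind collagens were taken from 5 lists with 61 genes in all, of which 56 were tested. Without the block 1 was called, lower (0.302% of all genes were lower). With it 8 were higher and 9 lower, or 17 of 56, beside 11.7% and 10.7% of all genes, and those shares apply to each list count below. Partner genes called only with the block were chosen for naming after their values were seen, unless among the 3 most abundant of their list. The gene called without the block was *PXDN*, peroxidasin, the enzyme that links type IV collagen molecules to each other through their ends. It was at 565, 448 and 525 CPM in the controls and at 260, 229 and 302 CPM after paxillin siRNA, and the groups did not overlap. This is a log2 fold change of -0.96 ± 0.16 (SE; edgeR adjusted p = 0.0436, and 0.000834 with the block). Leaving out a single library gave adjusted p-values from 0.00898 to 0.217, under 0.05 only without paxillin siRNA replicate 3, and limma on log2(FPKM + 1) gave 0.0545.

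Of 13 tested genes listed for procollagen processing and crosslinking, 3 were higher and 2 lower with the block, 8 did not pass in it, and without it 0 passed. *LOXL4*, a lysyl oxidase that starts collagen crosslinks, was at 65.4, 39.8 and 45.3 CPM and then at 175, 103 and 90.1 CPM, with every paxillin siRNA library above the controls (edgeR adjusted p = 0.0709, and 7.28e-05 with the block). *LOX*, the founding member of that family, was at 25.7, 7.12 and 38.0 CPM and then at 9.13, 4.49 and 16.9 CPM, lower in each pair (adjusted p = 0.29, and 0.000964 with the block). *BMP1*, which cuts the C-terminal end off procollagens, was at 23.7 ± 1.80 and 40.5 ± 6.98 CPM (SD, n = 3; adjusted p = 0.0605, and 0.00201 with the block). *TLL2*, a relative of *BMP1*, was at 4.55, 3.93 and 3.73 CPM and then 7.55, 7.85 and 5.38 (adjusted p = 0.0142 with the block). *PCOLCE2*, named for its likeness to an enhancer of that cut, was at 17.6, 18.4 and 12.7 CPM and then 9.13, 7.7 and 10.1 (0.0078). *LOXL2* and *LOXL1*, abundant members of the list, passed in neither fit. *LOXL2* was at 130 ± 13.4 CPM with non-specific siRNA and 103 ± 4.13 CPM with paxillin siRNA. *LOXL1* was at 30.4 ± 7.59 and 29.7 ± 4.02 CPM in that order.

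Of 14 genes listed for prolyl and lysyl modification of collagen chains, 1 was higher and 3 lower with the block. The lower ones were *P4HA1* (430 ± 130 and 311 ± 104 CPM, SD, n = 3), *PLOD2* (111 ± 13.4 and 81.3 ± 8.69 CPM) and *LEPREL1* (7.13 ± 1.02 and 3.06 ± 1.05 CPM), which encode a prolyl 4-hydroxylase subunit, a lysyl hydroxylase and a prolyl 3-hydroxylase. The higher one was *GLT25D2*, a galactosyltransferase (8.03 ± 0.368 and 11.4 ± 0.861 CPM). *P4HB* and *PPIB*, the most abundant of the list, did not pass (edgeR adjusted p = 0.312 and 0.207 with the block). *P4HB* was at 1469 ± 305 CPM with non-specific siRNA and 1243 ± 261 CPM with paxillin siRNA. *PPIB* was at 311 ± 48.1 and 264 ± 40.2 CPM in that order. Of 10 chaperone and export genes, 2 were higher with the block. They were *MIA3* (215 ± 69.8 and 320 ± 47 CPM) and *CTAGE5* (28.5 ± 4.47 and 38.8 ± 3.07 CPM), partners that load procollagen into export carriers. The 3 most abundant of that list, the vesicle coat and export genes *TFG*, *SEC13* and *SEC23A*, did not pass. *TFG* was at 198, 175 and 175 CPM and then 154, 127 and 158 (adjusted p = 0.0837 with the block). *SEC13* was at 174, 151 and 137 CPM and then 127, 104 and 130 (0.0667). *SEC23A* was at 197, 158 and 198 CPM and then 125, 118 and 216 (0.156).

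Of 9 collagen receptors tested, *ITGA10* was higher and *ITGA1* and *DDR1* lower with the block. *ITGA1*, the integrin alpha 1 chain that binds type IV collagen, was at 101, 60.5 and 125 CPM and then at 25.4, 22.5 and 75.3 CPM (edgeR adjusted p = 0.188, and 0.000678 with the block). *PELO* is also listed at the *ITGA1* locus, and other genes at those of *PPIB*, *CTAGE5*, *LOXL1*, *LOXL2* and *DDR1*. Reads there cannot be assigned between the genes either. *ITGA10* was at 12.7, 8.48 and 10.7 CPM and then at 32.5, 25.6 and 13.7 CPM (adjusted p = 0.0941, and 0.00332 with the block). *DDR1*, a receptor kinase, was at 118, 85.9 and 178 CPM and then 87.1, 64 and 137, lower in each pair with groups that overlapped (adjusted p = 0.0227 with the block). As for *COL11A2*, the locus of *DDR1* differs between the deposited counts and FPKM. *ITGA2* was at 145, 149 and 170 CPM and then 114, 179 and 187 (adjusted p = 0.903). *ITGB1*, the beta chain that the integrin alpha chains share, was at 2089 ± 171 and 2028 ± 261 CPM (SD, n = 3; adjusted p = 0.908). Among 10 tested matrix partners, *FN1*, fibronectin, was at 1840 ± 866 and 974 ± 477 CPM and *FBN1*, fibrillin 1, at 114 ± 11.5 and 157 ± 28.3 CPM, and they were lower and higher with the block (adjusted p = 0.0102 and 0.0463). *AGRN*, agrin, was at 648, 451 and 665 CPM and then 898, 976 and 659 (0.0786).

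Fibroblasts express several of these collagens, so fibroblast markers were read beside them. Of 10 markers, 4 were tested, and *PDGFRA* and *FBLN1* were lower with the block (edgeR adjusted p = 0.00643 and 0.00129). The markers summed to 66.0 to 68.3 CPM with non-specific siRNA and 28 to 48.1 CPM with paxillin siRNA. *FBLN1* and *PDGFRA* held nearly all of it, at 15.6 to 42 and 9.62 to 32.3 CPM. *LUM* had 14 to 57 reads and *ACTA2* 31 to 79, and neither passed (0.298 and 0.639 with the block). *PDGFRB* had 6 to 20 reads and *FAP* 0 to 8. *THY1*, *DCN*, *POSTN* and *TCF21* had at most 3 reads in every library. The carcinoma markers *KRT8*, *KRT18* and *KRT19* were at 171 to 565 CPM in every library. Of 5 carcinoma markers *EPCAM* and *CDH1* were higher without and with the block. Summed endothelial markers were at 102 to 144 and 161 to 183 CPM, mostly *KDR*, which was higher with the block (edgeR adjusted p = 0.00624), and *CLDN5* at 21.4 to 33.9 CPM, with *CDH5* and *TEK* at 3 reads or fewer. Summed leukocyte markers were at 35.6 to 50.5 and 56.3 to 89.2 CPM, mostly *CD68*, with *CD3E* at 0 or 1 read, and *CD68* and *LYZ* were higher with the block (edgeR adjusted p = 0.00205 and 0.0286). The part of these markers in the collagen values was not tested. In bulk libraries fewer cells of a type and less RNA per cell cannot be told apart.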

How the data were processed

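PC3 libraries (mRNA, Illumina TruSeq, per the labels' protocols), 3 with each siRNA, were grouped by sample titles. The authors deposited estimated counts per gene and FPKM, per the file headers. Cufflinks 2.0.2 with FastQC 0.10.1 on hg19 is listed in the submitters' processing notes. Aligner, annotation and strand handling: not given in the sources used here. Each library's deposited counts were multiples of 1 value, 0.825 to 1.37. Of values above 0, 90.8% to 91.7% were whole multiples within 0.05, and 3 such reads equal 0.0892 to 0.135 CPM (counting error only). Locus starts were raised by 1, because 1899 loci then had their gene's length against 253 otherwise.

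Estimated counts were rounded and tested in edgeR 4.0.16 (R 4.3.3; TMM, filterByExpr, quasi-likelihood, group only, two-sided, Benjamini-Hochberg over the 15876 genes kept, threshold 0.05). The SE is the log2 fold change over the root of F. CPM are TMM-scaled. Deviations of same-numbered libraries from group means correlated at 0.34, 0.43 and 0.56, each above 0.1, so replicate number was also fitted as a block. Differently numbered libraries correlated at -0.483 to 0.105. The highest of these, non-specific siRNA replicate 2 with paxillin siRNA replicate 1, also passed 0.1, and the negative ones all involved a replicate 3. The labels do not say what the numbers stand for. On data simulated for this comparison with 15876 genes, 68% of 2-fold and 97% of 4-fold changes were recovered with 8.84% false calls, and with the block 95% and 100% with 5.34% false. Changes were placed only in genes above a minimum average level, which collagens as low as *COL17A1* and *COL24A1* do not reach. Each fit was run on data simulated from its own model, so these values cannot show which fit is right. Alternatives were edgeR with RLE factors, no filter or single-read counts, DESeq2 1.42.0, limma 3.58.1 (voom, and log2 FPKM plus 1 or 0.1, minimum mean FPKM 1 or none) and single libraries left out. Block fits without 1 replicate number, and the *COL6A3* ratio, were added after the data were seen. Members and lists were chosen with earlier results of these data known. The rule named collagens with a mean of at least 1 FPKM or called in either fit, with values per library, and partner genes called without the block or among the 3 most abundant of a list, per library or as mean and SD. No pair of libraries in a group agreed within sampling noise (chi-square per degree of freedom at least 30.1). Promoters of COL genes without a RefSeq entry in the table, and protein sequences, were not used here. Some marker genes are not reported here.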

Additional observations from a re-analysis of the deposited data

How the results depend on the processing

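Over all genes, the 188 calls of the fit without a block became 3561 with the replicate block, 1559 by DESeq2, 303 with no filter on low counts, 33 and 63 by limma on log2(FPKM + 1) and log2(FPKM + 0.1) and 0 by limma without an FPKM filter, where 3968 genes had an unadjusted p under 0.05. Leaving out 1 library gave 0 to 2440 calls without the block, and leaving out 1 replicate number gave 455 to 4885 with it (1336 without replicate 2). Collagen calls went from 0 to 9 with the replicate block, 4 by DESeq2 (*COL4A5*, *COL5A2* and *COL17A1* higher, *COL6A3* lower) and 7 without paxillin siRNA replicate 3, and were 0 without any other single library. With the replicate block they were 1, 5 and 13 without replicate 1, 2 or 3 of both groups. Collagen partner calls went from 1 to 17 with the replicate block, 8 by DESeq2 and 0 in each limma fit on FPKM. They were 0 to 9 without single libraries and 4 to 23 in the block fits without 1 replicate number. RLE size factors, limma-voom and single-read counts left each of these counts within 1.5 times of the reported one. Each fit with fewer libraries also had less from which to estimate the spread. The silent collagens went from 3 to 21 under a mean of 0.1 FPKM, because the limit itself is higher. Without single libraries the log2 difference ran from 0.18 to 0.31 for *COL4A2* to *COL4A1*, from 0.74 to 1.31 for *COL5A2* to *COL5A1*, from -2.78 to -1.84 for *COL6A3* to *COL6A1*, and from -0.11 to 0.03 for *COL6A2* to *COL6A1*, with its sign changed without non-specific siRNA replicate 2. The sign-flip permutation p with the replicate block was 0.25 for *COL4A2* to *COL4A1* and *COL5A2* to *COL5A1*, the smallest that 3 pairs allow, and 1.0 for *COL6A2* to *COL6A1*. The *COL4A6* to *COL4A5* ratio was not run, since the planned ratios needed a mean of 1 FPKM in both chains. The cause of these shifts was not tested. Depth limits genes with few reads, such as *COL24A1*.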
